A study of Homo sapiens with 4 samples.

Results

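The genes described here are 57 listed factors of ribosome biogenesis and the nucleolus, followed at the RNA level in human leukaemia cells with and without induced GADD45g. They are given by a list of symbols, which was drawn up with earlier results of these data known. Of the 57, 55 were matched to a gene ID in the deposited tables, 54 of these had a value in all 4 libraries, and 53 passed the filter on low values (a mean of at least 1 RPKM) and were tested. The complete tables hold 57820 gene IDs, and 10771 genes were tested in all. DDX52 and BOP1 were matched to no ID and were not analysed here.

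RNA was sequenced from MOLM-13, an established line of acute myeloid leukaemia cells. One group, the untreated controls, received no treatment. In the other, called induced here, cells were given doxycycline, labelled as 1 mg/ml, for 4 days, and the libraries are named for GADD45g, a small protein that cells make under stress and that is known to slow their growth. Each group held 2 libraries, described by the design text as biological replicate experiments (n = 2 per group throughout). Doxycycline and GADD45g differ together between the groups and cannot be told apart. The sources used here do not give the promoter, vector or clonality behind the induction. Values are RPKM, reads relative to the length of the gene and the depth of the library. Changes are differences in log2(RPKM + 1), induced minus control, with the standard error (SE) of the fit. That scale understates the change of genes with low values.

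Ribosomes are built in the nucleolus, where RNA polymerase I transcribes the long precursor of the ribosomal RNAs. Box C/D and box H/ACA particles modify that precursor, the small subunit processome cleaves and folds it, and separate sets of helicases, GTPases, kinases and scaffold proteins carry the 40S and 60S subunits to the cytoplasm. Most of these factors do not stay in the finished ribosome, and growing cells, leukaemia cells among them, are known for making them in quantity.

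The RNA of nearly all these factors was lower in the induced cells. Limma, fitted across all 10771 genes with Benjamini-Hochberg adjustment and a threshold of 0.05, called 48 of the 53 tested factors lower. The same was called of 26.7% of all tested genes, of which 38.9% were called in either direction. None of the 53 was called higher, against 12.2% of all tested genes, and none was higher at an unadjusted p under 0.05. With voom on recovered reads, 1 factor, NOP10, was called higher. The 5 factors not called were IMP3, RRP12, GNL2, RRN3 and NOP10. In 52 of the 53, all but NOP10, both induced values lay below both control values, which held for 45.8% of all tested genes. A fall of at least 1 on the log2 scale was called for 42 factors (15.7% of all tested genes), and a fall of at least 2 for 11 factors (2.45% of all tested genes). The median change of the 53 was -1.62, with a range of -3.31 to 0.42, and the median over all tested genes was -0.21.

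As shares of the libraries, the 54 factors with a value everywhere took 6388 and 6363 RPM (reads scaled to the total of the library) in the controls and 1833 and 1891 RPM in the induced cells. The control mean of 6376 ± 17.9 RPM (SD, n = 2) was 3.42 times the induced mean of 1862 ± 40.8. Without NPM1 and NCL, the pair with the most control reads, the share went from 4553 and 4587 to 1484 and 1489 RPM, a fall of 3.07-fold. The fall of the summed share thus did not rest on those 2 genes. These are shares of total library reads from bulk cultures, so fewer cells of a type and less RNA per cell cannot be told apart. The plot of RPKM by library shows the separation gene by gene.

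**Figure D1:**
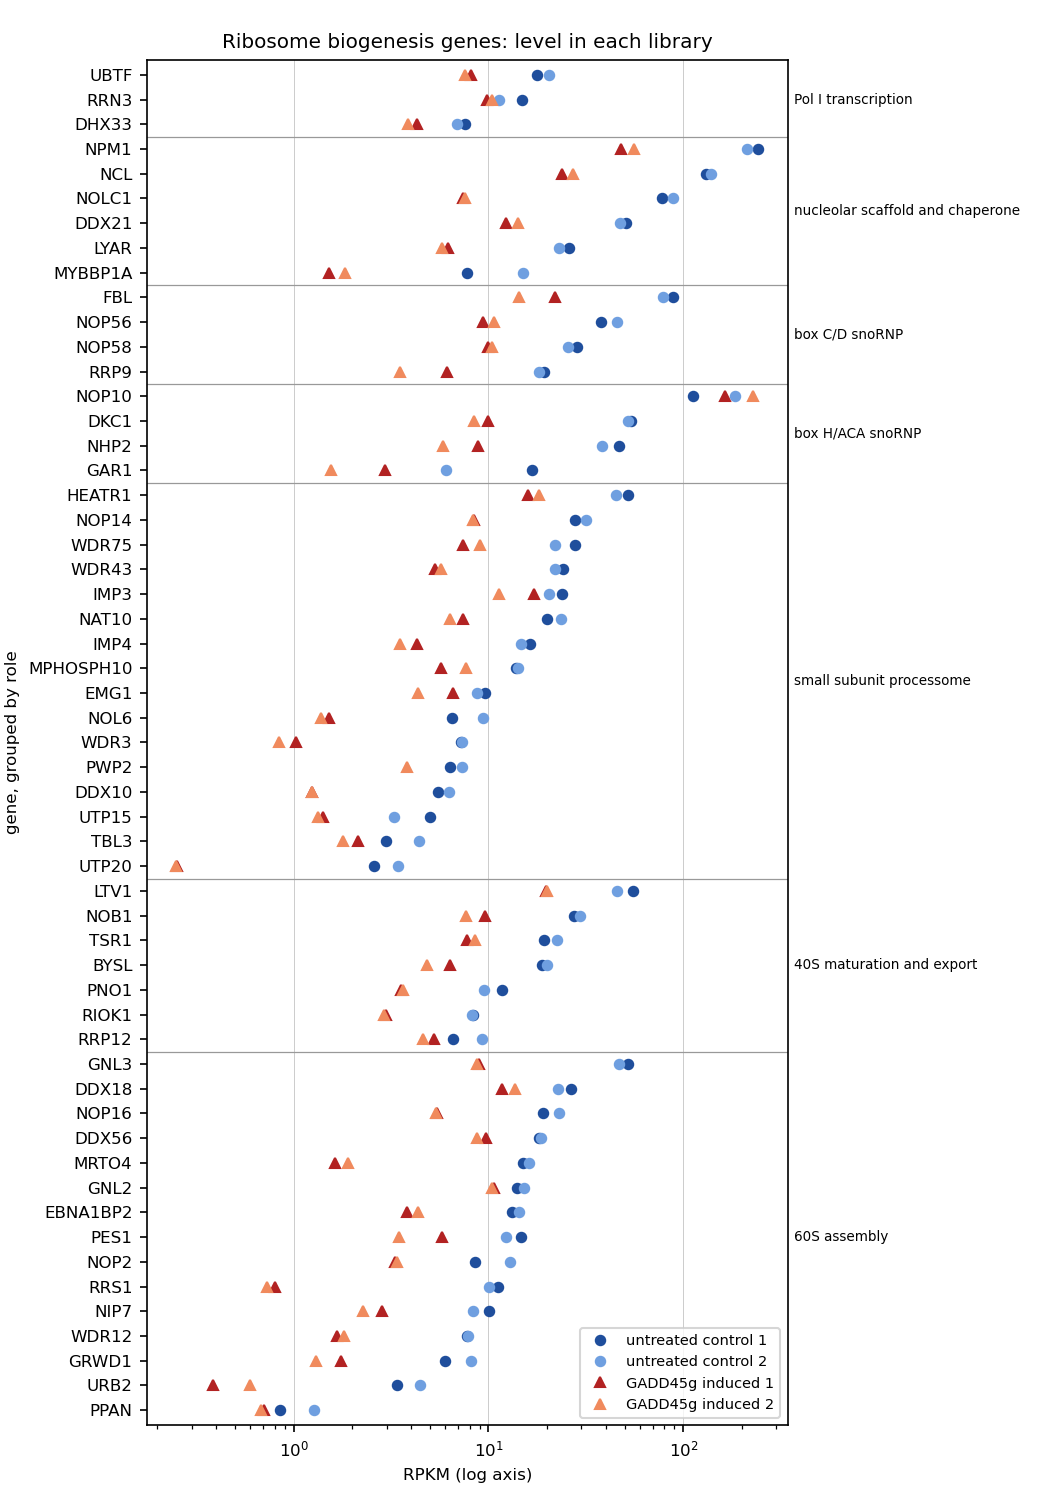
RPKM of the 55 matched factors in each library, on a log axis, grouped by role; circles are the 2 untreated controls and triangles the 2 induced libraries. Triangles lie left of both circles in every tested factor except NOP10, whose groups overlap, and PWP2 has no value in induced replicate 1.

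The labels were checked on GADD45G, which stood at 10.5 and 0.289 RPKM in the controls and at 3236 and 2118 RPKM in the induced libraries. Depths recovered from the values lay between 15683931 and 18895470 reads per library. Only the first 27332 IDs were read for induced replicate 1, whose table breaks off mid-row, and only genes listed in all 4 tables were tested. Among markers of the labelled cell type, CD33 lay between 12.5 and 21.5 RPKM in the 4 libraries and MPO did not exceed 0.278 RPKM. Summed RPKM of 9 listed myeloid markers (8 in all tables) went from 1295 and 1003 to 433 and 396, a fall carried by LYZ (1173 and 868 to 268 and 242). Without LYZ the sum was higher after induction, going from 122 and 135 to 165 and 153 RPKM, and of these genes ITGAM was called higher. SPI1 and PTPRC were higher in both induced libraries than in both controls but were not called. CD33 went the other way, from 17.6 and 21.5 to 12.5 and 13.7 RPKM, and was not called. Below the filter, CD14 was higher and FLT3 fell from 0.958 and 1.19 to 0.0889 and 0.0451 RPKM. CEBPA, outside the sum, was at 3.36 and 3.54 RPKM in the controls and 0.643 RPKM in induced 2. The 6 epithelial markers summed to 41.6 and 40.7 RPKM in control 1 and induced 1 and to 0.330 and 0.229 RPKM in control 2 and induced 2, and none of the 4 tested was called. The median change of the 53 factors was -1.53 between control 1 and induced 1, where all tested genes had -0.20, and -1.68 between control 2 and induced 2, where all had -0.22. In each of these pairs 52 of 53 factors were lower in the induced library, so the fall was there both with and without the epithelial signal. Fibroblast markers summed to between 3.35 and 6.88 RPKM, 2 of 3 erythroid genes were listed in all tables and were at 0, and the lymphocyte list (327 and 345 to 153 and 136 RPKM) was almost all NKG7. The part of LYZ, ITGAM, CD33, FLT3, CEBPA and NKG7 levels in the results was not tested.

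The count of called factors was checked under other scalings. TMM scaling rescales each library as a whole, on the assumption that most genes do not change. It took the split over all tested genes from 1314 higher and 2871 lower to 1917 higher and 2045 lower and shifted their median change to 0.00. The factors called lower went from 48 to 45, where 19.0% of all tested genes were lower. DHX33, TBL3 and EMG1 were the 3 lost, under TMM, upper quartile and quantile scaling, with the median shifted to 0 and with voom. Every one of the 48 stayed negative under all 18 alternatives in which it could be fitted, and 40 kept their call in all of them.

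**Figure D2:**
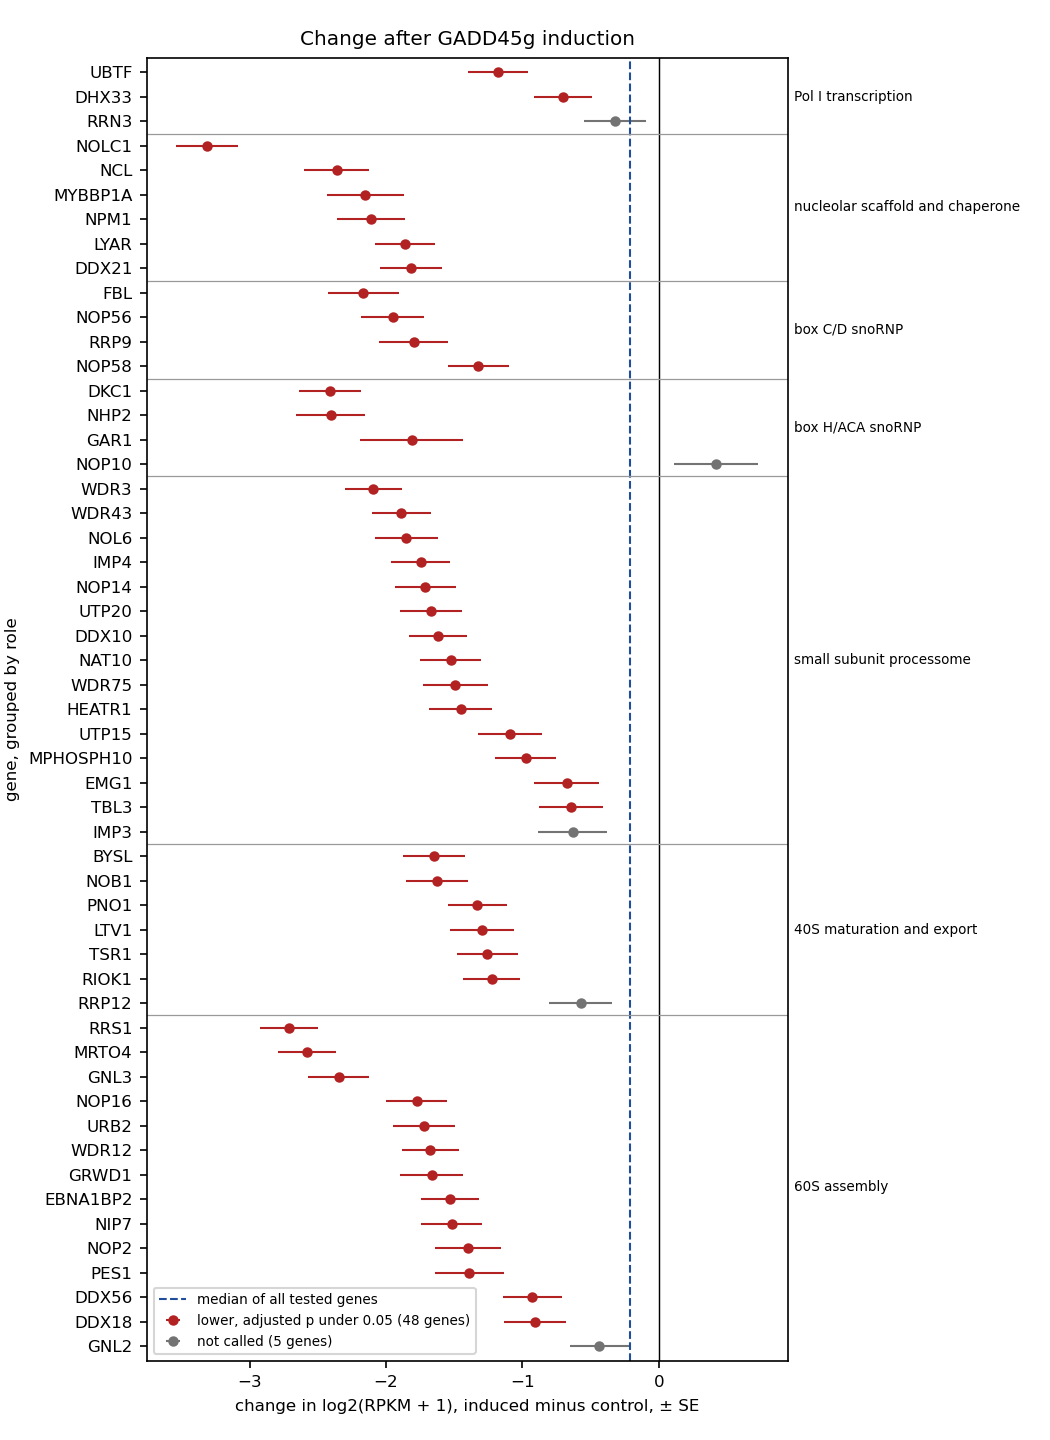
Change in log2(RPKM + 1) of the 53 tested factors, induced minus control, with bars of ± 1 SE from limma, grouped by role; red marks the 48 called lower and grey the 5 not called. The dashed line is the median of all tested genes (-0.21), and only NOP10 lies right of 0.

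Promoter sequence was read for 47 of the 57 genes from RefSeq windows on GRCh38.p14 that run from 250 bases before the annotated start to 49 after it (position 0 is the start). The letters CACGTG, a palindromic E-box that basic helix-loop-helix factors such as MYC with MAX are known to bind, were found in 19 of the 47 windows (40.4%). The share was 10.6% of 8398 tested-gene promoters and 7.43% of all 27305 windows. The 19 windows held 21 E-boxes, and 18 of these (85.7%) began between positions -20 and 40, against 20% of the 1010 E-boxes in tested-gene promoters. A window with an E-box in that range, which was chosen after the positions were seen, was found for 38.3% of the 47 genes and 2.32% of tested genes. The stretches below show 8 of them, each 24 bases, 5′ to 3′ on the gene's strand with the E-box in capitals, chosen to span the strongest falls, each assembly branch and the 2 genes with an E-box that were not called, GNL2 and NOP10:
MRTO4: cttccgccgCACGTGgattcagcg
FBL: gctcttttcCACGTGcgaaagccc
MYBBP1A: gccggagcaCACGTGtttcgtgtt
UTP20: ttttccgtcCACGTGacccactca
WDR43: acggacgaaCACGTGgctgcagcg
BYSL: ttcagtcccCACGTGcgatccttc
GNL2: cgtcgtgcaCACGTGgtccggcgt
NOP10: attgacgaaCACGTGacgcggtcg
Their places on GRCh38.p14 are MRTO4 chr1:19251810-19251833 (+ strand), FBL chr19:39846359-39846382 (- strand), MYBBP1A chr17:4555343-4555366 (- strand), UTP20 chr12:101280086-101280109 (+ strand), WDR43 chr2:28894661-28894684 (+ strand), BYSL chr6:41921518-41921541 (+ strand), GNL2 chr1:37595920-37595943 (- strand) and NOP10 chr15:34343133-34343156 (- strand). The first base of the E-box is at position 14 in MRTO4, 6 in FBL, 27 in MYBBP1A, -10 in UTP20, 3 in WDR43, 28 in BYSL, 3 in GNL2 and -11 in NOP10. These are coordinates of the RefSeq windows, since the deposited values were made on hg19, another build, and have no coordinates of their own here.

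The median fall was close with and without an E-box. The 18 tested factors with an E-box had a median change of -1.66, with 16 called lower, and the 27 without one in the window had a median of -1.62, with 25 called lower. Of 80 other assembly factors with a window, 25.0% held CACGTG. Among other hexamers searched on both strands, CACGCG (reverse CGCGTG) was in 31.9% of the 47 windows and 18.7% of tested-gene promoters, and CATGTG (reverse CACATG) in 4.26% and 6.76%. GGAAGT (reverse ACTTCC), which holds the core of sites that ETS family factors bind and flanking bases, was in 48.9% and 29.9%. Matches of different hexamers may overlap in a window. The other 10 genes, NOLC1 and RRS1 among them, had no window in the table.

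**Figure D3:**
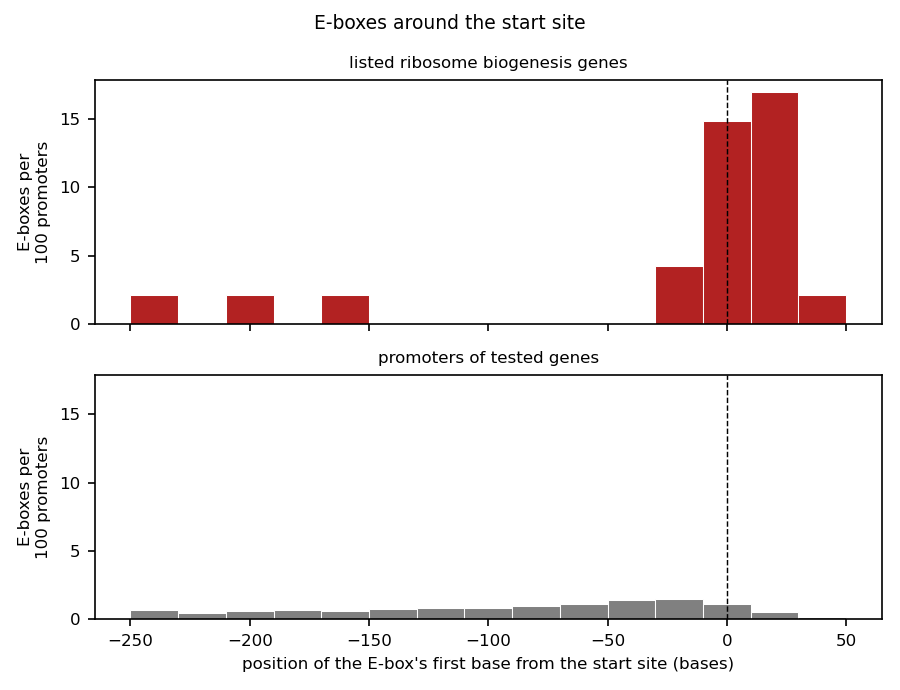
E-boxes (CACGTG) per 100 promoters in bins of 20 bases by the position of their first base from the annotated start (x axis, bases; dashed line at 0), for 47 listed genes above and 8398 tested-gene promoters below, on the same y scale. The listed genes reach 17.0 per 100 promoters between 10 and 30 bases, where tested-gene promoters have 0.524.

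RNA polymerase I transcription was covered by 3 genes, of which 2 were called lower, with a median change of -0.70, the smallest of the roles. UBTF (ENSG00000108312.10) encodes the factor that binds and opens the ribosomal RNA genes. It stood at 17.7 and 20.6 RPKM in the controls and at 8.09 and 7.62 RPKM in the induced cells, so the groups did not overlap (change -1.18 ± 0.22, adjusted p = 0.00176). DHX33, a helicase linked to polymerase I transcription, was at 7.58 and 6.93 against 4.31 and 3.85 RPKM (-0.70 ± 0.21, adjusted p = 0.0232). Its call was kept in 9 of 18 alternatives and was lost after scaling and without control 1 (limma adjusted p = 0.0775), induced 1 (0.0976) or induced 2 (0.162). RRN3, the initiation factor that recruits the polymerase, was at 14.8 and 11.3 against 9.84 and 10.5 RPKM. Its change of -0.32 ± 0.23 was not called (limma adjusted p = 0.289). The lower control lay close to the upper induced value. RRN3 had thus 0.835 and 0.550 times the RPKM of UBTF in the controls and 1.22 and 1.37 times in the induced cells, a reversed order per length.

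Of the abundant nucleolar scaffold and chaperone proteins, 6 of 6 were called lower, with a median change of -2.13. NOLC1 (ENSG00000166197.12), the phosphoprotein Nopp140 that shuttles with snoRNPs between nucleolus and Cajal bodies, had the largest fall of the 53 on the log2(RPKM + 1) scale. As a ratio of means RRS1 and UTP20 fell further, and RRS1 also led with a pseudocount of 0.1 (-3.62 against -3.46) and with voom (-3.49 against -3.22). NOLC1 stood at 78.0 and 88.2 RPKM in the controls and at 7.37 and 7.54 in the induced cells, 11.1-fold lower (-3.31 ± 0.23, limma adjusted p = 3.74e-06). Of all tested genes, 0.111% had a lower change. NCL (ENSG00000115053.11), nucleolin, which binds nascent ribosomal RNA, was at 131 and 139 against 23.9 and 27.1 RPKM (-2.36 ± 0.24, adjusted p = 4.16e-05). NPM1 (ENSG00000181163.9), nucleophosmin, forms the granular outer layer of the nucleolus and is often mutated in acute myeloid leukaemia. Its values were 243 and 212 RPKM in the controls, the highest of the called factors, and 48.1 and 55.9 RPKM after induction (-2.11 ± 0.25, adjusted p = 0.000105). Per RPKM of NCL there were 1.85 and 1.53 RPKM of NPM1 in the controls and 2.01 and 2.07 in the induced cells, so NCL was the lower of the pair in all 4 libraries. NPM1 has 45 numbered pseudogene copies, of which the 14 listed in all tables summed to at most 0.764 RPKM in a library, though reads of near-identical copies can be misplaced.

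MYBBP1A (ENSG00000132382.10), a nucleolar protein that binds the MYB oncoprotein, was uneven in the controls at 7.80 and 15.1 RPKM. Both values were well above the 1.52 and 1.85 RPKM of the induced cells (-2.15 ± 0.28, adjusted p = 0.000214). LYAR, a zinc finger nucleolar protein, went from 24.4 ± 1.98 to 5.98 ± 0.29 RPKM (SD, n = 2, change -1.86). DDX21 (ENSG00000165732.8), the helicase that links polymerase I output to processing, had the smallest fall of the role, from 50.6 and 47.5 to 12.3 and 14.1 RPKM (-1.82 ± 0.23, adjusted p = 0.000156).

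Among the box C/D proteins, which carry the guide RNAs for 2′-O-methylation of ribosomal RNA, all 4 were called lower (median -1.87). FBL (ENSG00000105202.3), fibrillarin, the methyltransferase itself, was at 88.6 and 78.2 RPKM in the controls and at 21.9 and 14.4 RPKM after induction (-2.17 ± 0.26, adjusted p = 0.000125). The 2 related scaffold proteins fell by different amounts: NOP56 by 1.95 and NOP58 by 1.32 on the log2 scale. NOP58 (ENSG00000055044.6) stood at 28.3 and 25.7 against 9.95 and 10.4 RPKM (adjusted p = 0.00092). Per length, NOP56 had 1.34 and 1.79 times the RPKM of NOP58 in the controls and 0.944 and 1.03 times in the induced cells, and FBL had 3.13 and 3.05 against 2.20 and 1.38 times. Neither of these ratios to NOP58 overlapped between the groups. The pairs for all ratios given here were chosen, and the share of other gene pairs that separate was not computed. Among single tested genes, 45.8% lay lower and 24.1% higher without overlap. RRP9, which belongs to the U3 particle, went from 19.2 and 18.2 to 6.10 and 3.53 RPKM (-1.80 ± 0.26).

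The box H/ACA proteins, which carry the guide RNAs for pseudouridylation and also bind the telomerase RNA, split. DKC1 (ENSG00000130826.11), dyskerin, the pseudouridine synthase, stood at 53.8 and 52.0 RPKM in the controls and at 9.92 and 8.42 RPKM after induction (-2.41 ± 0.23, adjusted p = 2.99e-05). NHP2 (ENSG00000145912.4) was at 47.0 and 38.3 against 8.80 and 5.85 RPKM (-2.41 ± 0.25, adjusted p = 5.56e-05). The pair fell in step: NHP2 had 0.874 and 0.735 times the RPKM of DKC1 in the controls and 0.887 and 0.695 times in the induced cells. GAR1 (ENSG00000109534.12) was at 16.7 and 6.09 RPKM in the controls and 2.95 and 1.56 RPKM after induction. These came from 639 and 195 reads against 114 and 51, so the controls differed by more than counting error (95% exact Poisson intervals 15.4 to 18.0 and 5.26 to 7.0 RPKM). Such intervals cover counting error only. The change of GAR1, -1.81 ± 0.38, had the widest error of the 53 (limma adjusted p = 0.00334), and its call was lost with no filter (adjusted p = 0.115) and with a robust prior (0.0902).

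NOP10 (ENSG00000182117.4), the smallest protein of the same particle, was the one factor whose values did not separate. It stood at 112 and 185 RPKM in the controls and at 164 and 228 RPKM in the induced cells, a change of 0.42 ± 0.31 that was not called (limma adjusted p = 0.304). Induced 1 lay between the controls and induced 2 above both. With voom on recovered reads, the change of NOP10 was 0.68 with an adjusted p of 0.0424. Per RPKM of DKC1 there were 2.09 and 3.55 RPKM of NOP10 in the controls and 16.5 and 27.1 in the induced cells, and this ratio did not overlap between the groups, unlike that of NHP2 to DKC1. The 250 bases before the start of the 4 genes are shown because NOP10 differed from its partners in both change and E-boxes, which are in capitals and found only in NOP10 among these 4 windows:
NOP10: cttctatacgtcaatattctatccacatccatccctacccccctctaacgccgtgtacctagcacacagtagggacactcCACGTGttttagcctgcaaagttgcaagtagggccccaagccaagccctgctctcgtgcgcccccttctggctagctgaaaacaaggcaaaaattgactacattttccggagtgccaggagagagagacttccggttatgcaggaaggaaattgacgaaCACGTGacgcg
DKC1: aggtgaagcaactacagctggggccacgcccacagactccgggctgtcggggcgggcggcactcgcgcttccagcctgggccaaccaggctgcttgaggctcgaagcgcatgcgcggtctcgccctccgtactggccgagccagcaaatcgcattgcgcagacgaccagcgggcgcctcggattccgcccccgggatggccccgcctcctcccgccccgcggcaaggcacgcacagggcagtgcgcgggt
NHP2: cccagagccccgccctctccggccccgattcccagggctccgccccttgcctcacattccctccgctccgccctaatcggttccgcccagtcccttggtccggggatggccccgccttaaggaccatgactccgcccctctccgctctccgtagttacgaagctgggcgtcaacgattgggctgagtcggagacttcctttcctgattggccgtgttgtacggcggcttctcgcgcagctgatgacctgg
GAR1: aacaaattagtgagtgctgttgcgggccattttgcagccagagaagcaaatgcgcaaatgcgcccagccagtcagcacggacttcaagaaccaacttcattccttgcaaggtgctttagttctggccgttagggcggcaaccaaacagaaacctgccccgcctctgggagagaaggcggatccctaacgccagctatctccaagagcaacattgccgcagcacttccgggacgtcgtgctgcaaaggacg
They lie at NOP10 chr15:34343137-34343386 (- strand), DKC1 chrX:154762614-154762863 (+ strand), NHP2 chr5:178153886-178154135 (- strand) and GAR1 chr4:109815260-109815509 (+ strand) on GRCh38.p14, each printed 5′ to 3′ on the gene's strand. The E-boxes of NOP10 begin at positions -170 and -11. These windows were picked for display after the values were seen, and a link between E-boxes and change was not tested.

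**Figure D4:**
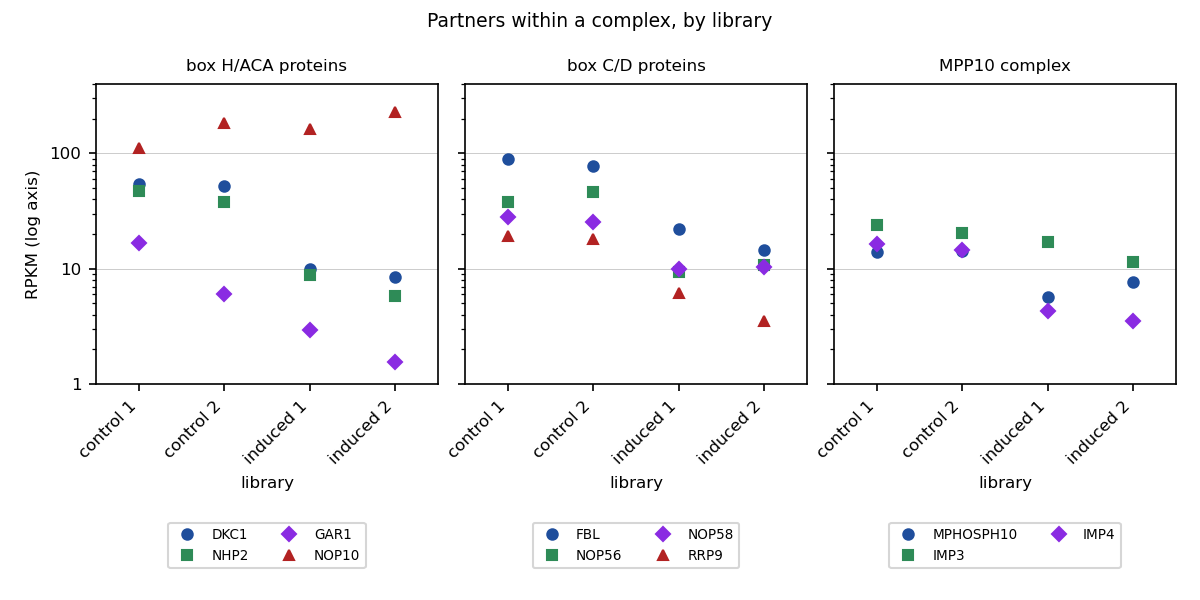
RPKM (log axis) by library for the proteins of 3 assemblies: box H/ACA, box C/D and the MPP10 complex. NOP10 stays between 112 and 228 RPKM while DKC1, NHP2 and GAR1 drop, and IMP3 drops less than IMP4.

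The small subunit processome, the large particle that forms on the 5′ part of the precursor, was covered by 15 tested genes, of which 14 were called lower (median -1.53). WDR3 (ENSG00000065183.11), a subunit of its UTP-B complex, had the largest log2 fall of the role. It stood at 7.21 and 7.30 RPKM in the controls and at 1.03 and 0.847 RPKM in the induced cells, 7.73-fold lower (-2.09 ± 0.21, adjusted p = 4.35e-05). UTP20 (ENSG00000120800.4), a large scaffold protein, was low in level but fell further as a ratio of means, 11.9-fold, from 2.59 and 3.42 to 0.253 and 0.250 RPKM. The counts behind it were 488 and 538 against 48 and 40 reads, and its change was -1.67 ± 0.22 on the log2(RPKM + 1) scale, which compresses so low a gene. WDR43, WDR75, UTP15 and HEATR1, of the UTP-A complex, and NOL6, of UTP-C, were each called lower, with changes of -1.89, -1.49, -1.09, -1.45 and -1.85. The call of UTP15 was lost with no filter (limma adjusted p = 0.0739).

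TBL3, another UTP-B subunit, fell less than WDR3. It was at 2.98 and 4.41 RPKM in the controls and at 2.14 and 1.80 RPKM after induction (-0.65 ± 0.23, limma adjusted p = 0.0487). This call was kept in 5 of 17 alternatives and was lost after each scaling and without control 2 (0.174), induced 1 (0.141) or induced 2 (0.254). Its RPKM was 0.413 and 0.604 times that of WDR3 in the controls and 2.08 and 2.12 times in the induced cells. PWP2 (ENSG00000241945.3), also of UTP-B, has no value in induced replicate 1 and was left out of the test. It stood at 6.32 and 7.31 RPKM in the controls and 3.83 RPKM in induced 2, and fitted on these 3 libraries its change of -0.69 was not called (limma adjusted p = 0.126). Exons of TBL3 share 2133 bases with NOXO1 on the opposite strand, which was at no more than 1.15 RPKM. Strand was not given, so reads of overlapping genes cannot be told apart.

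The MPP10 complex, a trimer within the processome, was uneven as well. IMP4 was at 16.3 and 14.7 RPKM in the controls and at 4.29 and 3.54 RPKM after induction (-1.75 ± 0.22, adjusted p = 0.000156). MPHOSPH10, its scaffold, was at 13.8 and 14.2 against 5.72 and 7.64 RPKM (-0.98 ± 0.23, adjusted p = 0.00606), and its call was lost without induced 1 (0.080). IMP3 had 23.8 and 20.5 RPKM in the controls and 17.0 and 11.4 RPKM in the induced cells, and its change of -0.63 ± 0.25 was not called (limma adjusted p = 0.0707). It was called under a replicate block (0.0306), under a robust prior (0.0459) and when genes under 5 RPKM were left out (0.0391). There were 1.47 and 1.40 RPKM of IMP3 per RPKM of IMP4 in the controls and 3.97 and 3.21 in the induced cells. IMP3 shares 801 exon bases with SNX33 on the opposite strand (3.57, 4.72, 6.73 and 6.58 RPKM, controls first). The part of SNX33 reads in the value of IMP3 was not tested.

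The other processome genes, 3 enzymes and the structural protein NOP14, were called lower too. NAT10, the acetyltransferase of ribosomal and transfer RNA, went from 21.8 ± 2.40 to 6.89 ± 0.75 RPKM (SD, n = 2, change -1.53). DDX10, a helicase, went from 5.54 and 6.30 to 1.24 and 1.25 RPKM (-1.62 ± 0.21), and NOP14 from 27.9 and 31.6 to 8.45 and 8.32 RPKM (-1.71 ± 0.22). EMG1, a pseudouridine methyltransferase, changed least of these, from 9.62 and 8.72 to 6.55 and 4.35 RPKM (-0.68 ± 0.24, adjusted p = 0.0435). Its call was kept in 8 of 18 alternatives and was lost after scaling and without control 1 (limma adjusted p = 0.159), control 2 (0.0963) or induced 2 (0.348). EMG1 shares 3100 exon bases with LPCAT3 on the opposite strand (12.1, 11.7, 8.74 and 7.69 RPKM, controls first). HEATR1 shares 2095 with LGALS8 (48.4, 43.5, 30.5 and 39.0 RPKM). The part of those reads in either value was not tested. In all, 26 of the listed genes share exon bases with another protein-coding gene, and only some of these overlaps are named here.

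Of 7 genes for maturation and export of the 40S subunit, 6 were called lower (median -1.30). BYSL (ENSG00000112578.5), bystin, which the pre-40S particle needs to mature, had the largest fall: 18.9 and 20.1 RPKM in the controls against 6.33 and 4.82 RPKM (-1.65 ± 0.23, adjusted p = 0.000278). NOB1, the endonuclease that makes the mature 3′ end of 18S ribosomal RNA, was at 27.6 and 29.5 against 9.57 and 7.68 RPKM (-1.62 ± 0.23), and its partner PNO1 at 11.8 and 9.54 against 3.56 and 3.65 RPKM (-1.33 ± 0.22). In both, each induced value lay below each control value. LTV1, TSR1 and the kinase RIOK1, factors bound to the late particle, changed by -1.30, -1.26 and -1.23. RRP12, an export factor, was at 6.58 and 9.22 RPKM in the controls and at 5.26 and 4.59 RPKM after induction, and was not called (-0.57 ± 0.23, limma adjusted p = 0.0732). It was called with a replicate block (0.0419) and without untreated control 1 (0.0492).

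Of 14 tested 60S assembly factors 13 were called lower (median -1.60), RRS1 and MRTO4 with the largest falls after NOLC1 on the log2(RPKM + 1) scale. RRS1 (ENSG00000179041.2), which helps bring the 5S particle into the pre-60S subunit, stood at 11.2 and 10.0 RPKM in the controls and at 0.808 and 0.735 RPKM in the induced cells (-2.71 ± 0.21, adjusted p = 9.71e-06). Its means differed 13.8-fold, the largest ratio among the tested factors, from 359 and 268 reads against 26 and 20. The counting intervals of the induced libraries ran from 0.527 to 1.18 and from 0.449 to 1.14 RPKM, far below the controls. MRTO4 (ENSG00000053372.4), which holds the place of the stalk protein P0, was at 15.0 and 16.1 against 1.63 and 1.91 RPKM, 8.79-fold lower (-2.58 ± 0.21, adjusted p = 1.30e-05). GNL3 (ENSG00000163938.12), the GTPase nucleostemin, was at 51.8 and 46.6 against 8.95 and 8.76 RPKM (-2.35 ± 0.22, adjusted p = 3.20e-05).

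GNL2, a GTPase of the same family that also acts on the pre-60S particle, moved little beside it. It was at 14.0 and 15.2 RPKM in the controls and at 10.6 and 10.5 RPKM after induction, without overlap but with a change of -0.44 ± 0.22 that was not called (limma adjusted p = 0.134). GNL2 had 0.271 and 0.327 times the RPKM of GNL3 in the controls and 1.19 times it in both induced libraries. PES1 and WDR12, partners of BOP1 in the PeBoW complex, fell by 1.39 and 1.68 on the log2 scale. URB2, at 3.41 and 4.47 against 0.388 and 0.595 RPKM, was 8.02-fold lower (-1.72 ± 0.23). The helicases DDX18 and DDX56 had smaller falls of 0.91 and 0.93, and each lost its call with 1 library left out: DDX18 without untreated control 1 (limma adjusted p = 0.0548) or induced 1 (0.0804), DDX56 without induced 2 (0.0622). NOP2, NOP16, NIP7, EBNA1BP2 and GRWD1 changed by -1.40, -1.77, -1.52, -1.53 and -1.66. PPAN (ENSG00000130810.15), at 0.852 and 1.28 RPKM against 0.703 and 0.679 RPKM, lay below the filter and was not tested.

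The size of a factor's fall hardly tracked its abundance. Across the 53 genes, Spearman's rho between control level and the log2 ratio of means was -0.0024 and Pearson's r 0.062. On the log2(RPKM + 1) scale they were -0.30 and -0.24, where low genes are compressed. The genes share the same 4 libraries and are not independent replicates, so these are descriptions. As ratios of means, 43 of the 53 were at least 2 times, 21 at least 4 times and 5 at least 8 times as high in the controls. The share of all tested genes at these ratios was not computed, so these counts describe the 53 only.

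A list of 93 other assembly factors showed the same direction with smaller changes. Of 88 tested, 55 were called lower, 3 higher and 30 neither, with a median change of -0.84. By share, 62.5% of these and 90.6% of the 53 were called lower, where all tested genes had 26.7%. Both lists were drawn up with earlier results of these data known, so the difference between them is a description only. The smallest adjusted p belonged to PAK1IP1, an early 60S factor, at 16.8 and 14.7 RPKM in the controls and 3.06 and 3.17 RPKM after induction (-2.02 ± 0.21, adjusted p = 5.72e-05). WDR36, of the UTP-B complex, was at 10.3 and 8.35 against 2.18 and 2.10 RPKM (-1.71 ± 0.22). RPF2, the partner of RRS1, was at 12.9 and 10.4 against 3.18 and 2.43 RPKM (-1.74 ± 0.23), and NIFK at 26.5 and 26.3 against 7.48 and 8.09 RPKM (-1.64 ± 0.22).

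The 3 called higher were RIOK3, SBDS and SHQ1. RIOK3, a kinase on cytoplasmic pre-40S particles, was at 22.1 and 16.0 RPKM in the controls and 35.9 and 37.8 RPKM after induction (0.94 ± 0.24, limma adjusted p = 0.011). SBDS, which helps release the factor EIF6 from the 60S subunit, was at 33.3 and 28.3 against 50.2 and 58.8 RPKM (0.80 ± 0.24, adjusted p = 0.0209). SHQ1, a chaperone of dyskerin, was at 4.75 and 4.08 against 6.88 and 7.43 RPKM (0.59 ± 0.21, adjusted p = 0.0482). Each call was lost in some fits with 1 library left out. RIOK3 and SBDS each lost theirs without untreated control 2 or without induced 2, and SHQ1 when any 1 of the 4 libraries was left out. Such fits leave 1 library in a group, so they cannot tell lost precision from dependence on the library left out.

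**Figure D5:**
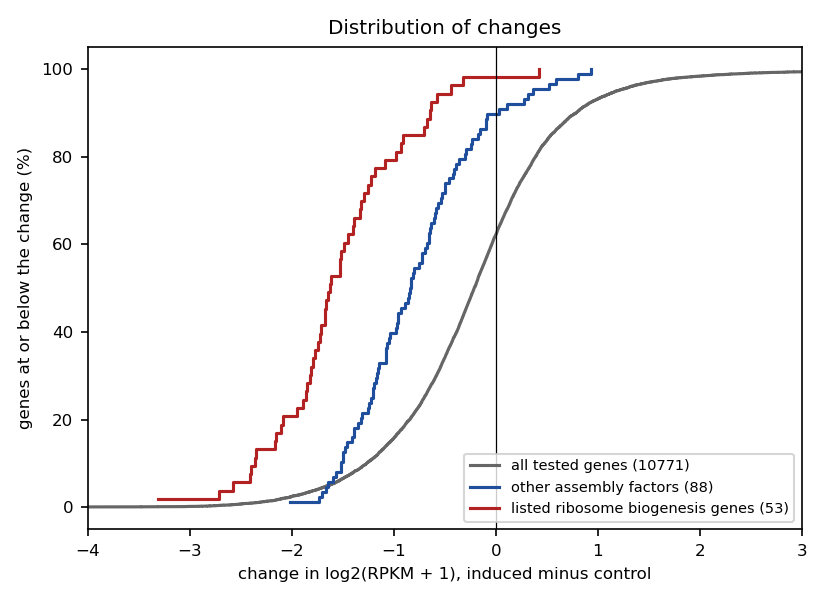
Cumulative share of genes (y axis, percent) at or below each change in log2(RPKM + 1) (x axis, induced minus control) for the 53 listed factors, 88 other assembly factors and all 10771 tested genes. The curve of the listed factors lies left of the others, with medians of -1.62, -0.84 and -0.21; a few genes beyond the axis limits are not drawn.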

How the data were processed

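RNA of 2 untreated and 2 induced MOLM-13 cultures was sequenced. Replicates were numbered by whether a title carries a suffix. The authors deposited RPKM, per the file headers, with 1 value for each Ensembl gene ID. TopHat, Cuffnorm, Cuffdiff and hg19 are named in the submitters' processing notes, without versions or roles. The sources used here do not give strand. Low values were whole multiples of 1 read (100% of values up to 20 reads, within 0.01 reads), which gave depths of 18778791, 15683931, 18895470 and 15968886 reads (controls 1 and 2, induced 1 and 2) and whole reads for 99.99% of tested IDs. A count of 0 was taken to allow up to 3 reads, a fixed setting. The intervals of 95% are exact Poisson limits, computed apart from that setting, and cover counting error only.

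Rows sharing a symbol were added up. Genes averaging 1 RPKM or more were kept, and their log2(RPKM + 1) was compared with limma 3.58.1 in R 4.3.3 (lmFit, eBayes with trend), two-sided, with Benjamini-Hochberg adjustment over 10771 genes and 0.05 as the threshold. Levels and ratios were computed with pandas 2.3.3 and numpy 2.4.6. Fits were tested on simulated data. Nothing says more of how the cultures were separated than the design text, so p-values measure only the spread between these samples. The members and lists were chosen with earlier results of these data known. Named are the 10 largest changes among called members, members not called or not tested, the extremes of each role, the 4 smallest adjusted p of the other assembly factors and those called higher; further members were named after their values were seen. Alternatives were other pseudocounts, filters, scalings, priors and rows per symbol, missing values kept, a replicate block, each library left out, and voom on the recovered reads. Promoter windows are RefSeq's, the first listed per gene; neighbouring and hosted genes were taken from GENCODE 29.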

Additional observations from a re-analysis of the deposited data

How the results depend on the processing

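The factors called lower, 48 of 53, ranged from 40 (filter at 5 RPKM, 44 tested) to 50 (replicate block), and from 44 to 46 with 1 library left out. Their median change of -1.62 became -1.81 with a pseudocount of 0.1 and -1.05 with one of 5, -1.53 with a filter at 5 RPKM, -1.42 after TMM, -1.49 after upper quartile and -1.42 after quantile scaling, -1.41 with the median shifted to 0 and -1.57 with voom. It ran from -1.67 to -1.54 with 1 library left out, and was -1.53 for induced 1 against control 1 alone, a setting chosen after seeing the data. Voom called 1 factor higher, NOP10. Over all genes, no filter gave 1639 lower and 823 higher, voom gave 2202 higher, and leaving out 1 library gave 1766 to 2449 lower and 798 to 1133 higher. The lowest of these were 1766 lower without induced 2, and 798 and 831 higher without induced 1 and 2. Of the other assembly factors, 29 were lower and 0 higher by limma with no filter (3 higher at an unadjusted p under 0.05; voom called 4 higher), and 0 to 2 were higher with 1 library left out. With no filter 20689 genes were tested, and the cause was not tested for any of these. Same-suffix libraries deviated together (correlation 0.349 over 10771 genes), and the epithelial signal was also shared by suffix. The labels do not say what the suffix marks, and 2 pairs are too few to settle it from the values. The replicate block gave 50 factors lower, adding IMP3 and RRP12, with 3393 genes lower and 1594 higher in all and 61 of the other assembly factors lower. For single genes, 482 comparisons kept side and direction, 15 fell below the threshold, 6 passed it and 0 reversed. The 2 libraries per group and, for the lowest genes, few reads limit precision.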

Other observations

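Introns and exons of 8 of the listed genes hold 27 snoRNA or scaRNA gene IDs in GENCODE 29. Of the 25 with a value in the 3 complete tables, 12 were above 0 in at least 1 of these. The highest was SNORD19, inside GNL3, at 21.1 and 15.9 RPKM in the controls and 0 and 0.921 RPKM in the induced cells, from 27 and 17 reads against 0 and 1. GNL3 itself went from 51.8 and 46.6 to 8.95 and 8.76 RPKM. Reads of the small RNA and of its host's unspliced transcript cannot be told apart in these values, and the difference was not tested.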
